A study of Homo sapiens with 4 samples.

Results

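The cyclins, cyclin-dependent kinases (CDKs) and CDK inhibitors that act in the G1 phase were examined in HCC1954 cells, an established human breast cancer cell line, after depletion of the palmitoyltransferase ZDHHC15. The members were 10 genes taken by symbol out of the 58735 genes of the count table: the D-type cyclins CCND1, CCND2 and CCND3, the E-type cyclin CCNE1, the kinases CDK4 and CDK6, the CIP/KIP inhibitors CDKN1A (p21) and CDKN1B (p27), and the INK4 inhibitors CDKN2A (p16 and ARF) and CDKN2B (p15). Each symbol matched 1 row. The shCON group held 2 samples with a scrambled hairpin and the shZDHHC15 group 2 samples with a GIPZ hairpin against ZDHHC15, and all 4 were HCC1954 cells grown in RPMI-1640 with serum. The study speaks of stable knockdown, whereas the treatment protocol of the samples describes a transient transfection with harvest after 36 h, and the methods mention screening of monoclonal cultures, so a line may be 1 clone. The labels do not say whether samples 1 and 2 of a group were separate cultures or carried different hairpins. Each p-value thus reflects only spread between these 4 samples, drawn in part from other genes, and that spread may be technical.

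In G1, D-type cyclins bind CDK4 or CDK6 and start the phosphorylation of the retinoblastoma protein, and cyclin E with CDK2 continues it, which releases E2F transcription factors and lets the cell enter S phase. INK4 proteins bind CDK4 and CDK6 and block their pairing with cyclin D, whereas CIP/KIP proteins bind cyclin-CDK complexes and chiefly restrain CDK2. Cyclin D1 is a frequent oncogene of breast cancer, and the CDK4/6 kinases are drug targets in that disease. Hippo/YAP signaling, the pathway under study, is known to affect proliferation through TEAD transcription factors.

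The 4 samples held between 17560982 and 19118704 counts. ZDHHC15, the targeted gene, had 17617 and 15716 counts in shCON and 0 in each shZDHHC15 sample, where a count of 0 allows up to 3 counts. How both depleted samples came to 0 counts for this gene was not tested. The epithelial and HER2 markers were present in every sample (9 of 9, summed level 21880 and 23772 counts scaled by library size (CPM) in shCON and 13298 and 13728 CPM in shZDHHC15). Of 6 leukocyte markers, CD3E was at 0 in all samples and PTPRC had at most 4 counts, but the summed level was 2.41 and 1.78 CPM in shCON against 9.83 and 7.85 CPM in shZDHHC15. The 5 fibroblast and vessel markers summed to 9.93 and 10.9 CPM against 47.4 and 29.5 CPM, the latter pair mostly through PECAM1, and PDGFRB had at most 3 counts in any sample. The part of these markers in the results was not tested. In bulk RNA, fewer cells that express a gene and less RNA per cell cannot be told apart.

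Cyclin D1 RNA fell to less than 0.5 of its control level, while the RNA of cyclin D3, cyclin E1 and CDK6 rose, and the RNA of CDKN2A fell modestly. CDK4, CDKN1A, CDKN1B and CDKN2B did not pass the test, and CCND2 was close to 0 in all samples. Of the 9 members expressed highly enough to be tested, 3 were called higher and 2 lower. A call meant that the adjusted p of edgeR's quasi-likelihood test, corrected by Benjamini-Hochberg across the 15817 genes tested, was below 0.05. Over all genes tested, 21.7% were called higher, 20.3% lower and 42.0% in either direction, so the count of 5 among 9 lies near the background. The median log2 fold change of the 9 genes was -0.12, beside 0.02 over all genes, and the median size of the change regardless of direction was 0.38, beside 0.37. The normalized levels of the groups did not overlap for 7 of the 9 genes, as for 72.5% of all genes tested. CCND1 lay farthest out, as 92.3% of all genes tested had a smaller change. With 2 samples a group, the smallest two-sided p of an exact permutation test is 0.333, and the adjusted p-values therefore draw on the spread of many genes.

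**Figure D1:**
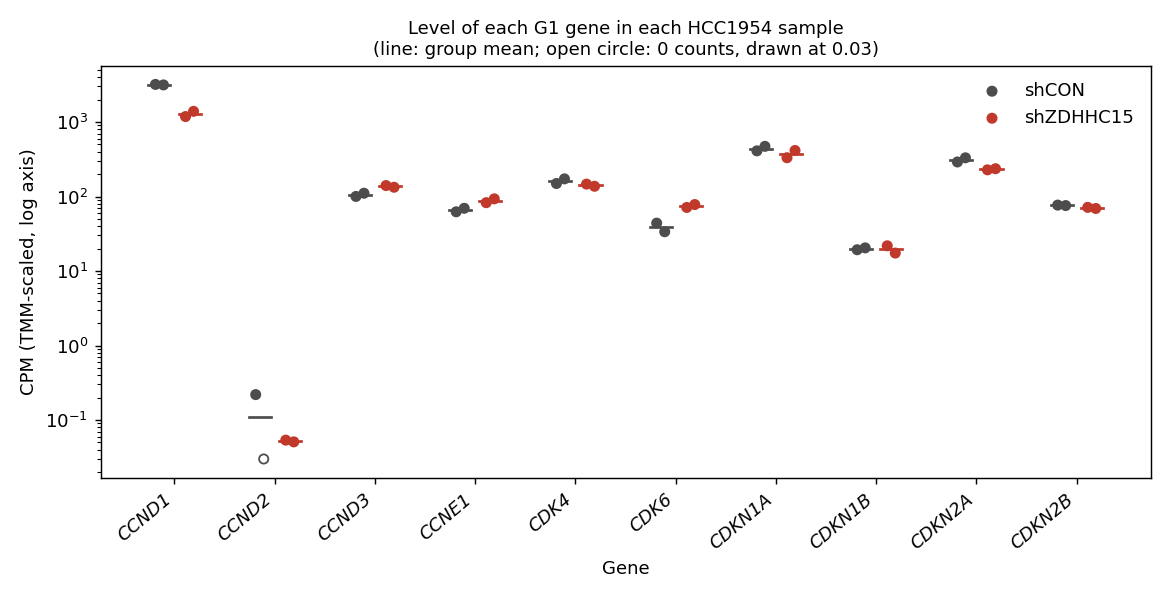
Normalized level of each of the 10 genes (CPM scaled by TMM factors, log axis) in the 2 shCON samples (grey) and the 2 shZDHHC15 samples (red), with a line at each group mean and an open circle for a sample with 0 counts, drawn at 0.03. CCND1 is the most abundant gene in every sample, from 1184 to 3198 CPM, and CCND2 reaches at most 0.219 CPM.

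Promoter windows of RefSeq (GRCh38.p14, 250 bases before to 50 after a gene start) were held for 8 of the 10 genes, 12 windows in all, without CCND1 and CCND2. They were searched on both strands for GGAATG, the core of the site bound by the YAP partner TEAD, for the E2F words TTTCCCGC, TTTGGCGC, TTTCGCGC and TTTGCCGC, and for the AP-1 word TGACTCA. The TEAD word was found once each in windows of CCND3 and CDKN2B, and in 14.0% of all 35116 windows. The other words were found in none of the 12 windows, and in 3.31% (E2F) and 4.95% (AP-1) of all windows. The 30 bases around each TEAD match are shown, since one gene rose and the other did not pass the test, with the matched word in capitals as read on the strand of the gene. The CCND3 site lies at chr6:41941832-41941861 and the CDKN2B site at chr9:22009487-22009516, both on the minus strand, with the match starting 41 and 199 bases before the gene start.
CCND3: gcgacgtccgagCATTCCacggttgctaca
CDKN2B: cagtgcagccagCATTCCtggcggctccct
The counts do not show which of the 3 CCND3 starts held by RefSeq was in use. A match is a sequence description and not evidence of binding, and a missing exact word does not show absence of binding.

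CCND1 (ENSG00000110092, GRCh38 chromosome 11, 69641087 to 69654474, plus strand) encodes cyclin D1, the activator of CDK4 and CDK6. Reads on it numbered 58294 and 53115 in shCON and 22052 and 27309 in shZDHHC15. On the normalized scale these were 3198 and 3149 CPM against 1184 and 1391 CPM, so both depleted samples lay far below both controls, and the distance within the depleted pair exceeded that within the control pair. The fall was 2.46-fold, or -1.30 ± 0.0939 (SE) as a log2 fold change (adjusted p = 6.59e-08). In TPM, which also divides by the deposited gene length and so allows genes to be compared, it was the most abundant of the 10 genes in both groups, at 2221 ± 110 TPM in shCON and 971 ± 109 TPM in shZDHHC15 (SD, n = 2). LTO1, on the opposite strand, shares 10.3% of the exon bases of CCND1, with 3279 and 3134 counts in shCON and 2417 and 2910 in shZDHHC15. LTO1 was also lower, by 0.39 on the log2 scale (adjusted p = 0.00444), and reads from overlapping exons cannot be told apart, since the library kit does not mark the strand. The nearest tested genes without overlap were AP000439.2, 159542 bases away at lower coordinates (log2 fold change 0.26, adjusted p = 0.687), and ANO1, 423828 bases away at higher coordinates (0.09, adjusted p = 0.532).

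CCND3 (chromosome 6, 41934933 to 42050357, minus strand) encodes cyclin D3, which binds the same kinases, and is one of the genes with a TEAD word shown above. Its counts were 1828 and 1868 in shCON and 2614 and 2616 in shZDHHC15, or 100.3 and 111 CPM against 140.4 and 133 CPM. Both depleted samples lay above both controls, with a log2 fold change of 0.38 ± 0.0970 (SE; adjusted p = 0.00618). The call was lost without shZDHHC15 replicate 1 (log2 fold change 0.34, adjusted p = 0.0666). The genes beside it moved the other way: BYSL was lower by 0.73 and TAF8 by 0.40 on the log2 scale (adjusted p = 6.96e-05 and 0.0177). CCND2 (chromosome 12, 4273772 to 4305350, plus strand), the cyclin D2 gene, received 4 and 0 counts in shCON and 1 and 1 in shZDHHC15. It was too low to be tested, no fold is given, and a difference was not detectable at this depth.

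Within a sample, cyclin D1 made up nearly all of the D-type cyclin RNA. On the TPM scale its share of the 3 genes was 97.5% and 97.2% in the shCON samples and 91.0% and 92.6% in the shZDHHC15 samples, with CCND3 rising from 2.54% and 2.84% to 8.98% and 7.39%. The rise of CCND3 was small in absolute terms beside the fall of CCND1. The summed level of the D-type cyclins went from 2282 ± 108 to 1057 ± 106 TPM (SD, n = 2), so the depleted cells kept less than 0.5 of the control sum. These shares are a description without a test.

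**Figure D2:**
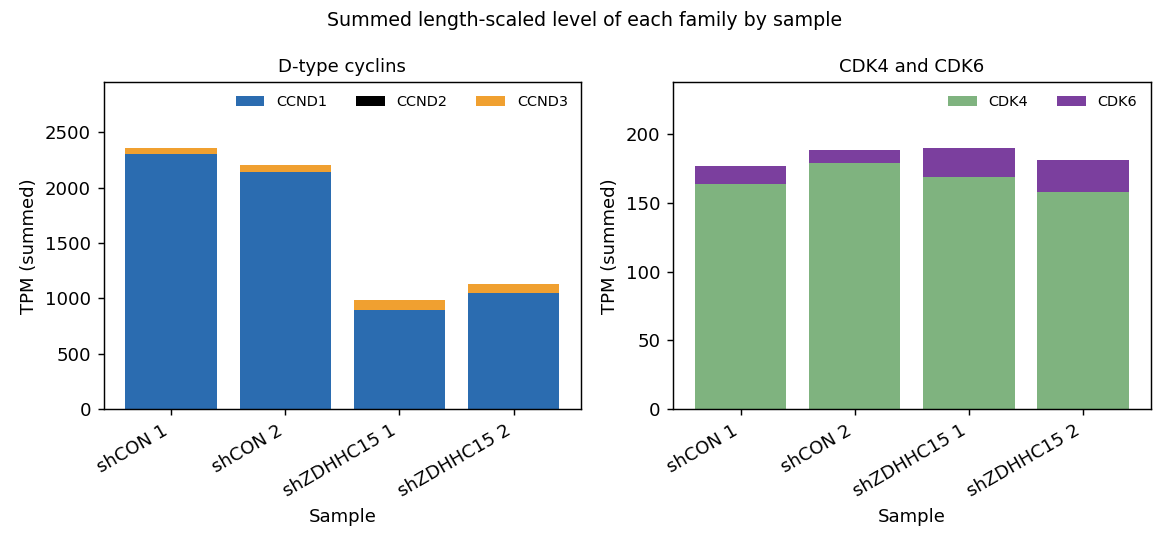
Summed length-scaled level (TPM, bars from 0) of the D-type cyclins and of CDK4 with CDK6 in each sample, coloured by gene. The D-type sum is 2359 and 2206 TPM in shCON and 982 and 1132 TPM in shZDHHC15, while the CDK4 and CDK6 sum lies between 176 and 190.04 TPM in all 4 samples.

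CDK6 (chromosome 7, 92604921 to 92836594, minus strand), one of the cyclin D kinases, rose most among the 10 genes. It received 801 and 568 counts in shCON and 1329 and 1532 in shZDHHC15, or 43.9 and 33.7 CPM against 71.4 and 78.0 CPM. The groups did not overlap, although the controls differed from each other more than the depleted samples did. The rise was 1.92-fold, or 0.94 ± 0.126 (SE) as a log2 fold change (95% interval 0.67 to 1.21, adjusted p = 3.42e-05). The value lay between 0.76 and 1.13 when single samples were omitted. SAMD9, the nearest tested gene at higher coordinates, 262919 bases away, rose by 2.45 on the log2 scale (adjusted p = 4.09e-08), and FAM133B on the other side had a log2 fold change of -0.04 (adjusted p = 0.895).

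CDK4 (chromosome 12, 57747727 to 57756013, minus strand), the paralog of CDK6, did not pass the test. Its levels were 149.6 and 173 CPM in shCON and 147 and 137 CPM in shZDHHC15, a log2 fold change of -0.18 with a 95% interval of -0.39 to 0.03 (adjusted p = 0.16). The depleted samples lay below both controls by a margin smaller than the distance between the controls. Without shCON replicate 1, CDK4 was called lower (log2 fold change -0.30, adjusted p = 0.0104), and without shCON replicate 2 its value was -0.079 (adjusted p = 0.601). TSPAN31 overlaps 43.2% of the exon bases of CDK4 on the opposite strand but received only 182 and 209 counts in shCON and 138 and 187 in shZDHHC15, against 2696 to 2912 for CDK4. On the TPM scale the sum of both kinases was 182 ± 8.31 in shCON and 185 ± 6.44 in shZDHHC15 (SD, n = 2), with CDK6 taking 7.05% and 4.80% of it in the controls and 11.2% and 12.8% in the depleted samples. In CPM, without the division by length, the sum was 194 and 206 in shCON and 218 and 215 in shZDHHC15. CDK6 took 22.7% and 16.3% of that sum in the controls and 32.7% and 36.2% in the depleted samples. CDK4 thus remained the more abundant kinase transcript in every sample on both scales.

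CCNE1 (chromosome 19, 29811898 to 29824308, plus strand) encodes cyclin E1, which activates CDK2 late in G1 and is itself an E2F target gene. Its counts were 1137 and 1173 in shCON and 1540 and 1827 in shZDHHC15, or 62.4 and 69.5 CPM against 82.7 and 93.1 CPM. Both depleted samples were above both controls, with a log2 fold change of 0.42 ± 0.106 (SE; adjusted p = 0.00585). The call was lost without shZDHHC15 replicate 2 (log2 fold change 0.33, adjusted p = 0.0823). No annotated exon of another gene overlaps CCNE1, and its neighbours C19orf12 and URI1 had log2 fold changes of -0.11 and -0.06 (adjusted p = 0.492 and 0.664).

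None of the 4 inhibitors was called higher. CDKN2A (chromosome 9, 21967753 to 21995301, minus strand) gives rise to p16, an inhibitor of CDK4 and CDK6, and, from another first exon, to the protein ARF, and the gene counts do not separate these transcripts. Its levels were 291 and 331 CPM in shCON and 228 and 236 CPM in shZDHHC15. Both depleted samples were lower than both controls, with a log2 fold change of -0.42 ± 0.0937 (SE; adjusted p = 0.00229). The antisense gene CDKN2B-AS1 shares 7.88% of the exon bases of CDKN2A but had only 17 to 33 counts in a sample. MTAP, the nearest tested gene at lower coordinates, had a fall of similar size (log2 fold change -0.42, adjusted p = 0.00469). CDKN2B (chromosome 9, 22002903 to 22009363, minus strand), which lies 7602 bases from CDKN2A and encodes p15, and whose promoter window holds the other TEAD word, had 76.7 and 75.6 CPM in shCON and 71.5 and 69.1 CPM in shZDHHC15. Its log2 fold change was -0.12, with a 95% interval of -0.33 to 0.09 (adjusted p = 0.371). The difference between the changes of CDKN2A and CDKN2B was not tested.

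CDKN1A (chromosome 6, 36676460 to 36687339, plus strand), which encodes p21, an inhibitor induced by DNA damage, was the second most abundant of the 10 genes per length, at 467 and 508 TPM in shCON and 396 and 495 TPM in shZDHHC15. Its levels of 410.5 and 472 CPM in shCON overlapped those of 332 and 415 CPM in shZDHHC15. The log2 fold change was -0.24, with a 95% interval of -0.47 to -0.01 and an adjusted p of 0.093, so it missed the threshold after adjustment. The result turned on single samples. Without shZDHHC15 replicate 1 the value was -0.09 (adjusted p = 0.68), and it was called lower without shZDHHC15 replicate 2 (-0.41, adjusted p = 0.0161) and without shCON replicate 1 (-0.36, adjusted p = 0.00117). Both neighbours, SRSF3 and PPIL1, were lower, by 0.44 and 0.95 on the log2 scale (adjusted p = 8.71e-04 and 4.96e-06). CDKN1B (chromosome 12, 12715058 to 12722371, plus strand), which encodes p27, a protein controlled largely by its turnover, had 19.3 and 20.5 CPM in shCON and 21.8 and 17.4 CPM in shZDHHC15. Its control values lay between those of the depleted samples. The log2 fold change was -0.02, with a 95% interval of -0.33 to 0.29 (adjusted p = 0.926). Of the neighbours of CDKN1B, APOLD1 was lower by 1.14 on the log2 scale (adjusted p = 0.00275). GPR19, on the other side, was not called (log2 fold change -0.22, adjusted p = 0.728).

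**Figure D3:**
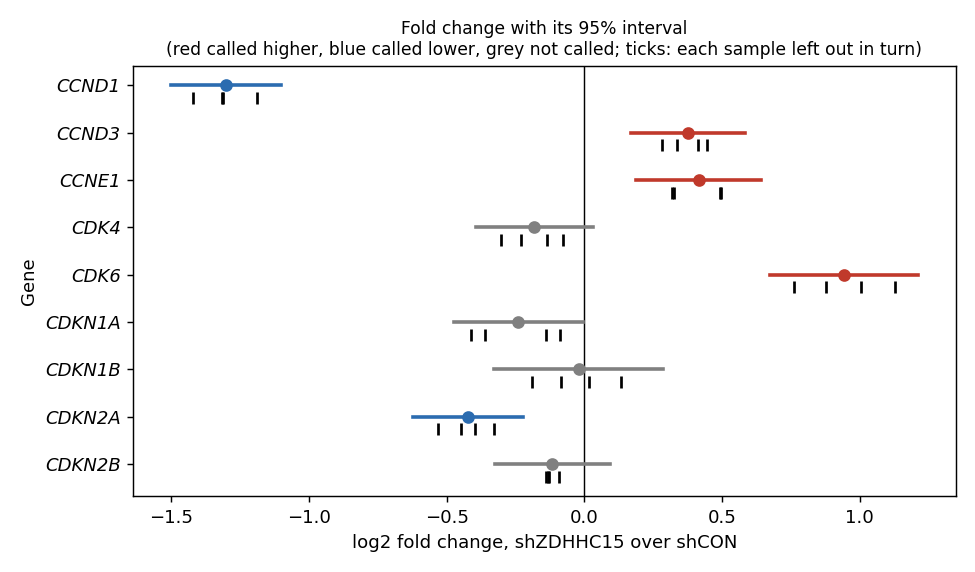
Log2 fold change (shZDHHC15 over shCON) of the 9 tested genes with 95% intervals (red called higher, blue called lower, grey not called) and, as ticks, the value with each sample left out in turn. CCND1 at -1.30 and CDK6 at 0.94 lie farthest from 0, and the ticks of CDKN1B fall on both sides of 0.

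Per length, the order of the genes hardly differed between groups. CCND1, CDKN1A, CDKN2A, CDK4 and CCNE1 came first in both, in this order, and CDKN1B, CDK6 and CCND2 last. The gene after CCNE1 was CDKN2B in shCON (63.5 ± 3.10 TPM, against 61.4 ± 1.93 TPM for CCND3) and CCND3 in shZDHHC15 (85.9 ± 3.24 TPM, against 63.1 ± 1.59 TPM for CDKN2B). The shCON pair differed by less than the spread between samples, while in shZDHHC15 the genes differed by more than their SDs. All other neighbours in the order were separated by more than their SDs in both groups, CDKN1B at 23.9 ± 0.0464 TPM and CDK6 at 10.7 ± 2.42 TPM in shCON included, except that CDKN1B (25.4 ± 4.04 TPM) and CDK6 (22.2 ± 1.38 TPM) came within their spread in shZDHHC15.

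The gene whose pattern was most like that of CCND1 over the 4 samples was KRT80, a keratin gene, with a Euclidean distance of 0.0292 in centred log2 CPM among 12916 protein-coding genes compared. OXTR, the oxytocin receptor gene, and MAOA, monoamine oxidase A, followed at 0.0793 and 0.0809. With 4 samples in 2 groups, such likeness is a description only.

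The genes around these members in the G1/S pathway went in both directions. Of 99 genes in 10 lists written from general knowledge (some genes are in more than 1 list, and 1 list is counted in these totals but not reported here), 27 were called higher and 24 lower, with a median log2 fold change of 0.08. Beside the background of 42.0% called, 51.5% of these genes were called. The share called was 40% for the other kinases and cyclins and also for the E2F and DP factors. It was 75% for the other inhibitors, 33.3% for the retinoblastoma family and 20% for the MuvB core. For turnover genes it was 25%, for upstream regulators 60%, for E2F-regulated genes 54.5% and for proliferation markers 100%.

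Among 10 other kinases and cyclins, 1 rose and 3 fell. CCNE2, the second E-type cyclin, rose with CCNE1, from 36.3 ± 5.18 to 75.4 ± 1.99 CPM (log2 fold change 1.05, adjusted p = 5.81e-06). CDK2, the kinase that both E-type cyclins activate, had a log2 fold change of 0.08 (adjusted p = 0.568). CDK7 and CCNH, which form the CDK-activating kinase with MNAT1, fell by 0.57 and 0.51 on the log2 scale (adjusted p = 0.00187 and 0.00865). MNAT1 was not called (log2 fold change -0.29, adjusted p = 0.0869). The call of CCNH was lost without shZDHHC15 replicate 2 (adjusted p = 0.0621). Of 4 other inhibitors, CDKN2C, the INK4 gene of p18, rose by 0.99 (adjusted p = 1.28e-04), while CDKN2D, that of p19, fell by 0.55 (adjusted p = 0.0062), a call lost without shZDHHC15 replicate 2 (adjusted p = 0.071). CDKN3, a phosphatase that acts on CDKs, fell by 1.28 (adjusted p = 3.44e-07). The INK4 family thus held 1 rise (CDKN2C), 2 falls (CDKN2A and CDKN2D) and 1 gene that was not called (CDKN2B).

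Of the 3 retinoblastoma family genes, RB1, which encodes the main substrate of the cyclin D kinases, rose from 21.5 ± 3.17 to 38.4 ± 6.17 CPM (log2 fold change 0.83, adjusted p = 3.20e-04), and the other 2 were not called. Of 10 E2F and DP factors, 4 rose and 0 fell. E2F2 rose by 0.98 (adjusted p = 8.72e-06) and E2F7, a repressor of E2F targets, by 0.77 (adjusted p = 8.04e-04), whereas E2F1 had a log2 fold change of -0.23 (adjusted p = 0.0812). E2F1 was called lower without shCON replicate 1 (-0.34, adjusted p = 0.00617), and its value without shCON replicate 2 was -0.14 (adjusted p = 0.326). Of the 5 MuvB core genes, which repress cell cycle genes in quiescent cells, LIN54 rose by 0.79 (adjusted p = 2.29e-04) and 4 were not called. Of 22 E2F-regulated genes, 9 rose and 3 fell, with a median log2 fold change of 0.17. POLA1, the catalytic subunit of DNA polymerase alpha, rose by 0.90 (adjusted p = 3.07e-05), while MYBL2 and TK1 fell by 0.32 and 0.28 (adjusted p = 0.011 and 0.0207). The calls of MYBL2 and TK1 were lost without shZDHHC15 replicate 1 (adjusted p = 0.16 and 0.169), and that of TK1 also without shCON replicate 2 (0.0771) and without shZDHHC15 replicate 2 (0.083).

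Of 12 genes for the turnover of G1 regulators, 2 rose and 1 fell. SKP2, the F-box protein that directs p27 to degradation, rose from 43.4 ± 2.79 to 81.4 ± 7.59 CPM (log2 fold change 0.91, adjusted p = 1.43e-05). DTL, which directs p21 and CDT1 to degradation in S phase, rose by 0.55 (adjusted p = 4.81e-04), and CKS1B, the partner of SKP2, fell by 0.45 (adjusted p = 0.00133). Of 10 upstream regulators, 3 rose and 3 fell. MYC, a transcription factor that promotes G1 progression, fell from 661 ± 32.9 to 355 ± 46.1 CPM (log2 fold change -0.90, adjusted p = 6.15e-06), and KLF4, which can induce p21, fell by 0.70 (adjusted p = 1.22e-04). SP1 rose by 0.50 (adjusted p = 0.00184; 0.0507 without shZDHHC15 replicate 1) and EZH2, a Polycomb methyltransferase known to repress the INK4 locus, by 0.48 (adjusted p = 0.00143).

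All 8 proliferation markers were called, 2 higher and 6 lower, with a median log2 fold change of -0.59. MKI67 rose from 195 ± 62.2 to 321 ± 37.4 CPM (log2 fold change 0.72, adjusted p = 0.00187; 0.0908 with DESeq2 and 0.0647 with no filter on low counts). The value of MKI67 was 0.42 without shCON replicate 2 and 1.07 without shCON replicate 1, and it was called in both. TOP2A rose by 0.42 (adjusted p = 0.0159). The call of TOP2A was lost without shCON replicate 2 (log2 fold change 0.21, adjusted p = 0.0982) and without shZDHHC15 replicate 1 (0.29, adjusted p = 0.101), and its value was 0.65 without shCON replicate 1. The mitotic kinases PLK1 and AURKA had log2 fold changes of -1.43 and -1.41 (adjusted p = 2.46e-08 and 1.16e-08). The markers of proliferation thus went both ways.

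**Figure D4:**
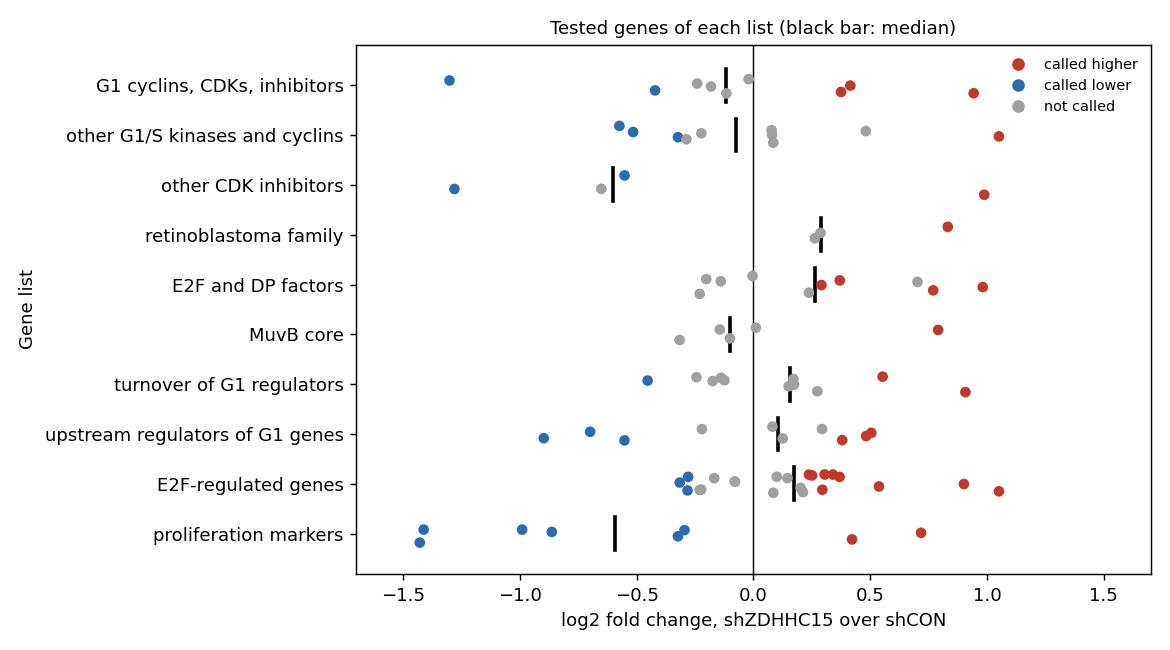
Log2 fold change (shZDHHC15 over shCON) of every tested gene in the member set and in 9 lists, with a black bar at the median and colours for genes called higher (red), lower (blue) or not called (grey). Most lists spread over both sides of 0, and the proliferation markers have the second lowest median (-0.59) after the other CDK inhibitors (-0.60).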

How the data were processed

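RNA-seq of 4 HCC1954 samples was analysed, 2 per group, with groups taken from the sample titles. Per the labels, total RNA was made into libraries with the NEBNext Ultra kit, which does not mark the strand. The authors deposited raw counts of reads per gene (58735 genes). The submitters' processing notes name HISAT2, StringTie, SAMtools and hg38, and the counting tool and strand setting are not given in the sources used here. All 58735 genes matched GENCODE release 29 (GRCh38) in start and end. All 4 columns of counts were used.

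The counts were filtered with filterByExpr (15817 genes left), scaled by TMM and tested with edgeR 4.0.16 (R 4.3.3) by glmQLFit and glmQLFTest, with Benjamini-Hochberg adjustment at 0.05. Standard errors were derived from each fold change with its F statistic, and 95% intervals from the t distribution with the total degrees of freedom of the fit. CPM used TMM-scaled library sizes. TPM used the deposited gene lengths. The chi-square statistic between samples of a group was 8.32 (shCON) and 6.79 (shZDHHC15) per degree of freedom, so they were kept as separate replicates. Exon overlaps came from GENCODE, and no member shared a stretch of at least 150 bases at 97% identity with a gene elsewhere. Floors and intervals of counts cover counting error only.

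The members and lists were chosen with earlier results of these data known. Genes named were all members, ZDHHC15 and, per list, up to 2 called genes in each direction with a mean of at least 50 counts. A set of 9 pathway genes was named whatever their value, and MNAT1 as the partner of CDK7 and CCNH. Neighbours and overlapping genes of some members, and the 3 protein-coding genes closest in pattern to CCND1, were also named. The marker genes were named as part of the check of the cell type. The fits were tested on simulated data. DESeq2 1.42.0 and other scalings, filters and designs were run as alternatives. Results of 1 gene list and of some single genes are not reported here.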

Additional observations from a re-analysis of the deposited data

How the results depend on the processing

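Among 13 alternatives, CCND1 and CDK6 kept their direction and call in all 13, with log2 fold changes of -1.42 to -1.19 and 0.76 to 1.13. CDKN2A was called in 12, and CCND3 and CCNE1 in 11 each. Tested against a fold change of 1.2 (glmTreat), 1 member was higher and 1 lower (CDK6 and CCND1), 32 genes of the G1/S lists were called and 4157 of all genes. With each sample left out in turn, where the lone sample is assumed to vary like the other group, between 2 and 4 members were lower. CDKN1B was not called and changed sign with library size only (0.054) and between -0.19 and 0.13 as samples were left out. CDK2, which was not called, ranged from -0.0046 to 0.14 as samples were left out and was 0.16 with library size only. The share of CCND1 in D-type cyclin RNA of shZDHHC15 samples was 90.3% in CPM instead of 91.8% in TPM. Samples with the same number shared little (correlation of deviations 0.06). With the replicate block, 7225 genes were called in place of 6644, and CDKN1A was called lower (adjusted p = 0.0136), as was E2F1 (0.0367). 2 samples per group limit what could be detected.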
